A study of Mus musculus with 24 samples.

Results

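The 10 genes described here are markers of activated hepatic stellate cells and of the extracellular matrix. They are Acta2, Tagln, Vim, Lgals1, Sparc, Lum, Dcn, Fn1, Timp1 and Timp2. They were taken by gene symbol, each through the probe set that carries that gene alone, and they are 10 of the 18820 genes with such a probe set on the Affymetrix Mouse Gene 1.1 ST array. Each of the 10 had exactly 1 such probe set. The livers came from male mice on a C57Bl/6 background, 4 to 6 months old, that were randomly assigned to 3 diets and fed for 7 weeks. Fat supplied 45% of the energy of every diet, and its source set the diets apart. Mice on the Trans diet ate soy oil that had been partially hydrogenated, those on the Cis diet a combination of canola with palm olein oil, and those on the Saturated diet cocoa butter. There were 8 livers per diet, each from a different mouse and on its own array. All 3 groups ate a high fat diet, so every difference below is between high fat diets and not against a low fat or chow liver.

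Values are log2 signals after normalization between arrays, so that a difference of 1 is a doubling. Array medians lay between 2.94 and 3.06. Correlation with the remaining arrays, taken as a median, was lowest for Trans replicate 4 (0.975) and Cis replicate 8 (0.979), against a maximum of 0.986. Cis replicate 7 was next and also at 0.979, so Cis replicate 8 did not stand apart. A difference was called when its p-value from limma, adjusted over all 35556 probe sets (Benjamini-Hochberg), was under 0.05. Of the 10 markers, 7 had a mean signal over 20 on the linear scale, and the others were Lum at 19.95, Tagln at 15.9 and Timp1 at 3.71. All 10 measured hepatocyte markers were over 20, as were 9 of 10 markers of quiescent stellate cells. RNA came from whole liver, in which fewer cells of a type and less RNA per cell cannot be told apart.

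Stellate cells lie between the liver sinusoids and the hepatocytes, where in healthy liver they store vitamin A. When the liver is injured they turn into myofibroblast-like cells, which take on contractile proteins such as α-smooth muscle actin and lay down fibrillar collagen with its binding proteins. Tissue inhibitors of metalloproteinases, which these cells also make, slow the breakdown of that matrix. None of the 10 genes belongs to stellate cells alone. Smooth muscle of the vessel walls carries Acta2 and Tagln, portal fibroblasts, leukocytes and endothelial cells carry Vim, Sparc or Lgals1, and hepatocytes release the plasma form of fibronectin.

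RefSeq promoter sequences (assembly GRCm38.p6) were matched for 5 of the 10 genes. The 250 bases before the start are shown for Acta2, Sparc, Vim and Timp2, the 4 matched genes that were highest in Trans replicates 1 and 4. Capitals mark motif matches on either strand:
Acta2 chr19:34255374-34255623 (minus strand): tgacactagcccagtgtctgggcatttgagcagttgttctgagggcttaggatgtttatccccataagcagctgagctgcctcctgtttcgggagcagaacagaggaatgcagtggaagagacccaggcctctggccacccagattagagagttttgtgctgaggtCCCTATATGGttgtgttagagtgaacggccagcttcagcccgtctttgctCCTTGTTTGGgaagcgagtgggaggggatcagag
Sparc chr11:55420081-55420330 (minus strand): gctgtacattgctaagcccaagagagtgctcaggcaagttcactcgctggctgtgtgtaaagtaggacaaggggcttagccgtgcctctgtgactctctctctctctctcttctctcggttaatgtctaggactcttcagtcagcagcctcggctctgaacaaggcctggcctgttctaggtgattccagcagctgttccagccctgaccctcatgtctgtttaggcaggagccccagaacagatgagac
Vim chr2:13574061-13574310 (plus strand): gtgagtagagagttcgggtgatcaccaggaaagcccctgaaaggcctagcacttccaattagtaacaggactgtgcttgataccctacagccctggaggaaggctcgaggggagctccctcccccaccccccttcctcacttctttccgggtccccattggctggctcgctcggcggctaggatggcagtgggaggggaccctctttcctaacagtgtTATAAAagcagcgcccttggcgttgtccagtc
Timp2 chr11:118355412-118355661 (minus strand): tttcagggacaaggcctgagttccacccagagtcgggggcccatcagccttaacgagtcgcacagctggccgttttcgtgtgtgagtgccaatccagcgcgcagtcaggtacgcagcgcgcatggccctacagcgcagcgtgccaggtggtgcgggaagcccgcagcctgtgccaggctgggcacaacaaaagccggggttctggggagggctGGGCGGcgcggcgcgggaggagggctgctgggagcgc
In Acta2 the capitals are CArG-like elements, which begin 84 and 34 bases before the start. The CArG box is the element that serum response factor binds, and in the CArG-like form 1 of its 6 middle bases may be other than A or T, so that it includes the exact box. No exact CArG box lay in the Acta2 window, and the wider form was chosen after that was seen. Of 32851 promoters, 1.47% held an exact CArG box and 8.59% a CArG-like element. Vim held a TATA box (TATAAA), 32 bases before the start, as 12.4% of promoters did. Timp2 held a GC box (GGGCGG), 37 bases before the start, as 32.7% of promoters did. The Sparc window held none of the motifs searched, which were these 4 and the AP-1 site TGANTCA (6.75% of promoters). The marked matches do not overlap, and a match describes letters only.

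None of the 10 markers differed between diets past the threshold. In Trans against Saturated livers 0 of 10 were called (0.00844% of all probe sets were), in Trans against Cis livers 0 of 10 (0.00281%), and in Cis against Saturated livers 0 of 10 (0% of all probe sets). At an unadjusted p under 0.05, 4 of 10 were higher in Trans than in Saturated livers, namely Acta2, Lgals1, Sparc and Vim, against 3.79% of all probe sets. Against Cis livers 5 of 10 were higher in Trans livers, namely Acta2, Tagln, Vim, Lum and Timp2, with 3.05% of all probe sets. Without Trans replicate 4 and Cis replicate 8, the 2 arrays of lowest correlation, the count against Cis livers was 1 of 10, while that against Saturated livers stayed at 4 of 10. Between Cis and Saturated livers it was 1 of 10, Lgals1 (3.3% of all probe sets). None was lower at that level in any of the 3 comparisons (3.54%, 3.12% and 3.27% of all probe sets). The median log2 difference over the 10 was 0.31 for Trans minus Saturated, 0.32 for Trans minus Cis and -0.04 for Cis minus Saturated, while over all probe sets each median was 0.00. The Trans livers enter the first 2 of these comparisons and the Saturated livers the first and the last, so the 3 are not independent. For none of the 10 did all 8 Trans livers lie above all 8 Saturated livers, which 0.045% of all probe sets did, nor above all 8 Cis livers (0.0112%), and for none did all Cis livers lie above all Saturated livers (0.0141%). A positive difference was found for 8 of 10 for Trans minus Saturated (49.9% of all probe sets), 9 of 10 for Trans minus Cis (48.9%) and 4 of 10 for Cis minus Saturated (51.3%).

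**Figure D1:**
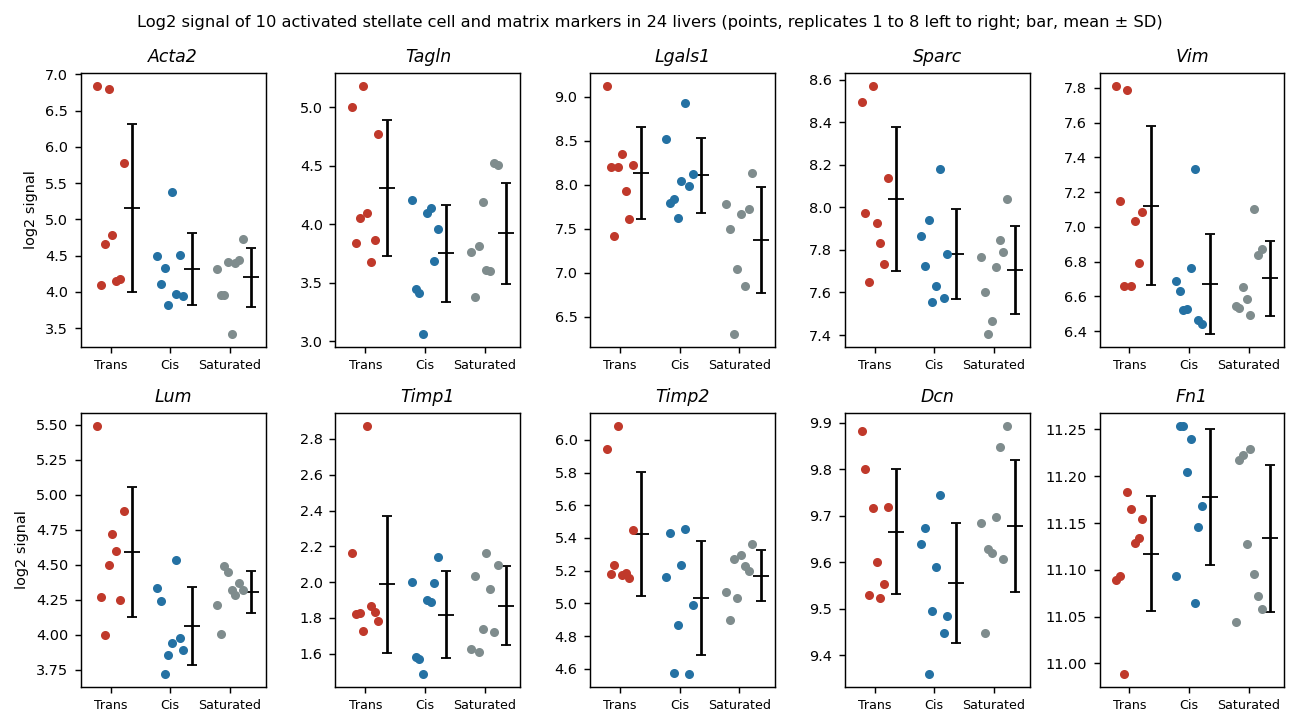
Log2 signal (y axis, a scale of its own for each gene) of the 10 markers in the 24 livers, by diet (x axis), with points for replicates 1 to 8 from left to right and a bar for the mean ± SD. Trans replicates 1 and 4 stand at the top for Acta2 (6.84 and 6.80), Tagln (5.00 and 5.19), Vim (7.81 and 7.79), Sparc (8.49 and 8.57) and Timp2 (5.94 and 6.09), while Fn1 lies between 10.99 and 11.25 in every liver.

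Among the cytoskeletal markers, Acta2 (probe set 10467124) encodes α-smooth muscle actin, the usual marker of stellate cell activation. Its log2 signal had a minimum of 4.09, a median of 4.72 and a maximum of 6.84 in Trans livers, against 3.82, 4.22 and 5.38 in Cis livers and 3.41, 4.36 and 4.72 in Saturated livers. The Trans livers fell apart into 3 that were high, replicate 1 at 6.84, replicate 4 at 6.80 and replicate 8 at 5.77, and 5 between 4.09 and 4.78, within the Cis range. Acta2 averaged 5.16 ± 1.16 in Trans livers, 4.32 ± 0.50 in Cis livers and 4.20 ± 0.41 in Saturated livers (SD, n = 8 each). The difference of Trans minus Saturated was 0.96 (SE 0.36, 1.94-fold, 95% interval 0.21 to 1.70 on the log2 scale, limma adjusted p = 0.562), and that of Trans minus Cis was 0.84 (adjusted p = 0.802). The 95% interval for Cis minus Saturated ran from -0.63 to 0.87. Without Trans replicate 1, Acta2 was 0.72 higher in Trans than in Saturated livers.

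Tagln (probe set 10593123) encodes transgelin, an actin-binding protein of smooth muscle and myofibroblasts. Its log2 signal ran from 3.68 over a median of 4.08 to 5.19 in Trans livers, against 3.06, 3.82 and 4.21 in Cis livers and 3.38, 3.79 and 4.52 in Saturated livers. The same 3 Trans livers, replicates 4, 1 and 8, were the only ones of all 24 above 4.52. Tagln differed by 0.56 for Trans minus Cis (95% interval 0.09 to 1.03, limma adjusted p = 0.779) and by 0.39 for Trans minus Saturated (adjusted p = 0.758). Vim (probe set 10469322) encodes vimentin, the intermediate filament protein of mesenchymal cells. It ran from 6.66 over 7.06 to 7.81 in Trans livers, against 6.44, 6.58 and 7.33 in Cis livers and 6.49, 6.62 and 7.10 in Saturated livers. Trans replicates 1 and 4 were highest, with Trans replicate 2 and Cis replicate 6 next to them above the Saturated range. Its difference was 0.42 for Trans minus Saturated (SE 0.16, 1.34-fold, limma adjusted p = 0.575) and 0.45 for Trans minus Cis (adjusted p = 0.735).

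Of the matrix genes, Sparc (probe set 10386058) encodes a collagen-binding matricellular glycoprotein. Its log2 signal had a minimum, median and maximum of 7.65, 7.95 and 8.57 in Trans livers, against 7.55, 7.75 and 8.18 in Cis livers and 7.40, 7.74 and 8.04 in Saturated livers. Of the 8 Trans livers, 7 exceeded the Saturated mean of 7.70, and 3 exceeded the highest Saturated liver. The difference of Trans minus Saturated was 0.33 (SE 0.13, 1.26-fold, limma adjusted p = 0.561), and that of Trans minus Cis 0.26 (adjusted p = 0.802). Lum (probe set 10365983) encodes lumican, a small leucine-rich proteoglycan that binds collagen fibrils. It ran from 4.00 over 4.55 to 5.49 in Trans livers, against 3.72, 3.96 and 4.53 in Cis livers and 4.01, 4.32 and 4.49 in Saturated livers, and 5 of 8 Trans livers lay above every Saturated liver. Among the 10 markers Lum had the smallest p for Trans minus Cis, at a difference of 0.53 (SE 0.16, 1.44-fold, limma adjusted p = 0.635). For Trans minus Saturated it was 0.28 (adjusted p = 0.722), and 0.15 without Trans replicate 1.

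Dcn and Fn1 showed little difference in level. Decorin, encoded by Dcn (probe set 10365974), is like lumican a small leucine-rich proteoglycan on collagen fibrils. It averaged 9.67 ± 0.13 in Trans livers, 9.55 ± 0.13 in Cis livers and 9.68 ± 0.14 in Saturated livers, and its range of 9.52 to 9.88 in Trans livers overlapped those of 9.36 to 9.74 in Cis and 9.45 to 9.89 in Saturated livers. The 95% interval of Trans minus Saturated was -0.16 to 0.13 on the log2 scale. Fn1 (probe set 10355403) encodes fibronectin, and averaged 11.12 ± 0.06 in Trans livers, 11.18 ± 0.07 in Cis livers and 11.13 ± 0.08 in Saturated livers. Its difference of Trans minus Saturated had a 95% interval of -0.11 to 0.08, and the range of 10.99 to 11.18 in Trans livers overlapped those of 11.06 to 11.25 in Cis and 11.04 to 11.23 in Saturated livers.

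Timp1 and Timp2 encode tissue inhibitors of metalloproteinases. Timp2 (probe set 10393559) ran from 5.15 over 5.21 to 6.09 in Trans livers, against 4.57, 5.08 and 5.46 in Cis livers and 4.90, 5.21 and 5.36 in Saturated livers. Its medians were thus equal to 2 decimals in Trans and Saturated livers, and Trans replicates 4 and 1, at 6.09 and 5.94, were above every liver of the other diets. The difference was 0.39 for Trans minus Cis (SE 0.15, 1.31-fold, limma adjusted p = 0.763) and 0.26 for Trans minus Saturated (adjusted p = 0.753). Without Trans replicate 4 the difference of Trans minus Saturated was 0.16. Timp1 (probe set 10598976) was dim, with a mean of 1.99 ± 0.38 in Trans livers, 1.82 ± 0.24 in Cis livers and 1.87 ± 0.22 in Saturated livers. Trans replicate 5, at 2.87, stood alone, and the other 23 livers lay between 1.48 and 2.16. The difference of Trans minus Saturated was 0.12 (95% interval -0.17 to 0.41, limma adjusted p = 0.915), and -0.01 without that liver.

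Lgals1 (probe set 10425161) had close means in Trans and Cis livers, 8.13 ± 0.52 and 8.11 ± 0.43, and a lower mean of 7.38 ± 0.60 in Saturated livers. It encodes galectin-1, a β-galactoside-binding lectin that many mesenchymal and immune cells release. Its log2 signal ran from 7.42 over 8.21 to 9.13 in Trans livers, from 7.62 over 8.02 to 8.93 in Cis livers and from 6.30 over 7.59 to 8.14 in Saturated livers. All 8 Trans and all 8 Cis livers lay above the Saturated mean of 7.38. The difference was 0.76 for Trans minus Saturated (SE 0.25, 1.69-fold, limma adjusted p = 0.474) and 0.73 for Cis minus Saturated (SE 0.25, 1.66-fold, adjusted p = 0.638), 2 comparisons that share the Saturated livers. Between Trans and Cis livers the difference was 0.02, with a 95% interval of -0.49 to 0.53. Saturated replicate 3 had the lowest value of all 24 livers, 6.30, and without it the difference was 0.60 for Trans and 0.58 for Cis livers.

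**Figure D2:**
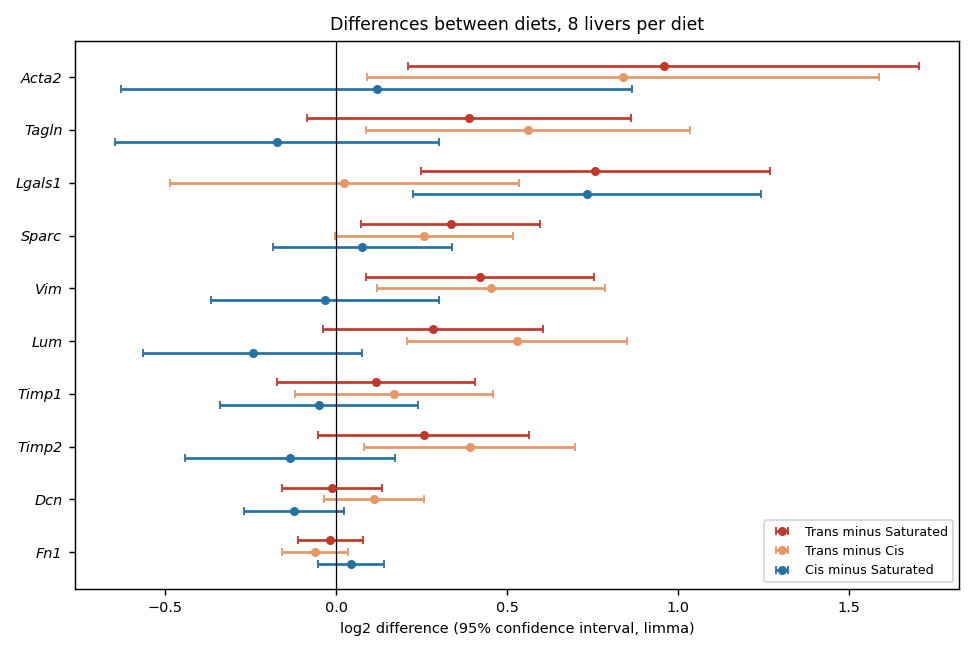
Log2 differences between diets (x axis) with 95% confidence intervals from limma for the 10 markers (y axis), 8 livers per diet. The intervals of Fn1 and Dcn are narrow and include 0, that of Acta2 for Trans minus Saturated runs from 0.21 to 1.70, and Lgals1 lies away from 0 for Trans minus Saturated (0.76) and Cis minus Saturated (0.73) but not for Trans minus Cis (0.02).

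The livers of the Trans group were spread widely in some of these markers. Spread was taken as the mean absolute deviation of the livers from their own diet mean, corrected for group size, and was tested by limma over all probe sets. For Acta2 it was 1.05 in Trans livers, 0.38 in Cis livers and 0.34 in Saturated livers on the log2 scale. The difference in spread was 0.71 for Trans minus Saturated (SE 0.18, limma adjusted p = 0.452) and 0.67 for Trans minus Cis (adjusted p = 0.421). Lum had a spread of 0.36 in Trans, 0.25 in Cis and 0.11 in Saturated livers, and Timp2 one of 0.32, 0.31 and 0.13. At an unadjusted p under 0.05, Acta2, Lum and Timp2 had a wider spread in Trans than in Saturated livers (3.63% of all probe sets did), Acta2 had one against Cis livers (2.95%), and Timp2 had one in Cis against Saturated livers (4.99%). No marker's spread was called after adjustment, with 0%, 0.00844% and 0% of all probe sets called for Trans minus Saturated, Trans minus Cis and Cis minus Saturated. The spread was larger in Trans than in Saturated livers for 8 of 10 markers, all but Lgals1 and Fn1. The share of all probe sets with a larger spread in Trans livers was not counted. For Timp1, Dcn and Lgals1 the sign turned when certain single livers were left out.

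The highest Trans livers were much the same from marker to marker. Trans replicate 1 was among the 3 highest of all 24 livers for 9 of the 10 markers, Trans replicate 4 for 5 and Trans replicate 8 for 3. Trans replicate 1 lay above every Saturated liver for 7 markers, as did Trans replicate 4, and Trans replicate 8 did so for 6. Trans replicates 3 and 7 did so for none. High livers were not confined to the Trans diet, since Cis replicate 6 was among the 3 highest for 4 markers and above every Saturated liver for 5. At the other end, Cis replicate 4 was among the 3 lowest livers for 6 markers and Cis replicate 3 for 5. Trans replicate 4 is also the array with the lowest median correlation with the others (0.975), and Trans replicate 1, at 0.983, is not set apart by that measure. The part of array quality in these values was not tested. How often each liver ranked in these ways over all probe sets was not counted. These counts are therefore not set against the array as a whole.

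**Figure D3:**
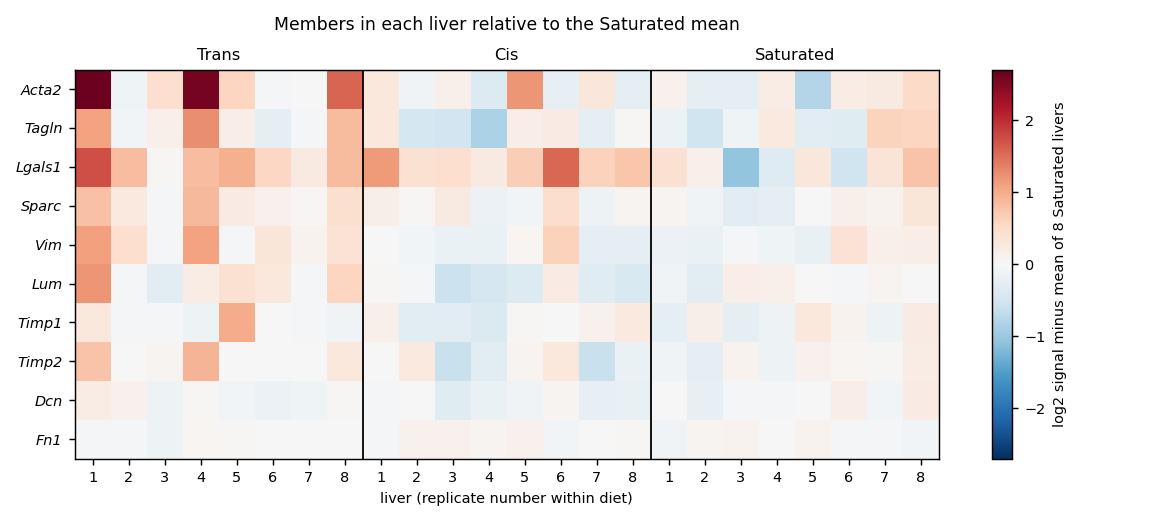
Log2 signal minus the mean of the 8 Saturated livers (colour) for the 10 markers (y axis) in each liver (x axis, replicate number within its diet). Trans replicates 1, 4 and 8 are darkest for Acta2, and Trans replicate 1 is among the 3 highest livers for 9 of 10 markers, whereas Trans replicates 3 and 7 lie above every Saturated liver for none.

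Whether the markers varied together within a diet was examined over the 24 livers after each diet mean had been removed, for all 45 pairs, with 100000 permutations of livers within diet (two-sided) and adjustment over the 45 pairs. Pearson's r passed the threshold for 23 pairs, every one of them positive, and Spearman's rho for 18. The strongest pair was Sparc and Vim (r = 0.81, permutation p = 1.20e-04, adjusted p = 0.00108, rho = 0.66). Next came Acta2 and Tagln, the 2 actin cytoskeleton genes (r = 0.79, permutation p = 2.00e-05, adjusted p = 6.75e-04, rho = 0.78). Within single diets the r of Acta2 and Tagln was 0.98 in Trans livers, 0.43 in Cis livers and 0.67 in Saturated livers. Vim and Timp2 had an r of 0.78, Lgals1 and Sparc 0.73, Timp2 and Dcn 0.72, and Vim and Dcn 0.70. Dcn, whose diet means were close to each other, thus varied with Vim and Timp2 from liver to liver within diets.

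Many of these correlations leaned on the same 2 livers. When the 2 livers farthest from the median of the first gene of a pair were left out, usually Trans replicates 1 and 4, 8 of the 23 pairs still passed and no other pair did. Acta2 and Tagln kept an r of 0.66, Sparc and Vim 0.64, Lgals1 and Sparc 0.63, and Timp2 and Dcn 0.74. The r of Acta2 dropped to 0.21 with Sparc, 0.17 with Vim and 0.16 with Timp2, against 0.62, 0.63 and 0.60 over all livers, so that the size of these 3 values depended on those livers. By rank over all 24 livers the 3 pairs passed, with a rho of 0.53, 0.61 and 0.52 (permutation adjusted p = 0.046, 0.025 and 0.042). Within Cis livers alone the r of Acta2 with Sparc was -0.26, against 0.91 within Trans and 0.45 within Saturated livers. Timp1 and Fn1 had 0 of 9 pairs past the threshold each, and the r of Fn1 with the 9 others ran from -0.34 with Lgals1 up to about 0 with Acta2. Within Trans livers alone the r of Fn1 was above 0 with all 9, from 0.12 with Dcn to 0.44 with Sparc. As a description, 22 of the 45 pairs of markers had an r over 0.5, against 3.36% of all pairs among the 8298 genes with a mean signal over 20. The 45 pairs include those of Lum, Tagln and Timp1, whose mean signals were under 20, so the gene sets are not alike. Genes measured on the same arrays share whatever sets a liver or an array apart, so that these values do not come from independent measurements.

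**Figure D4:**
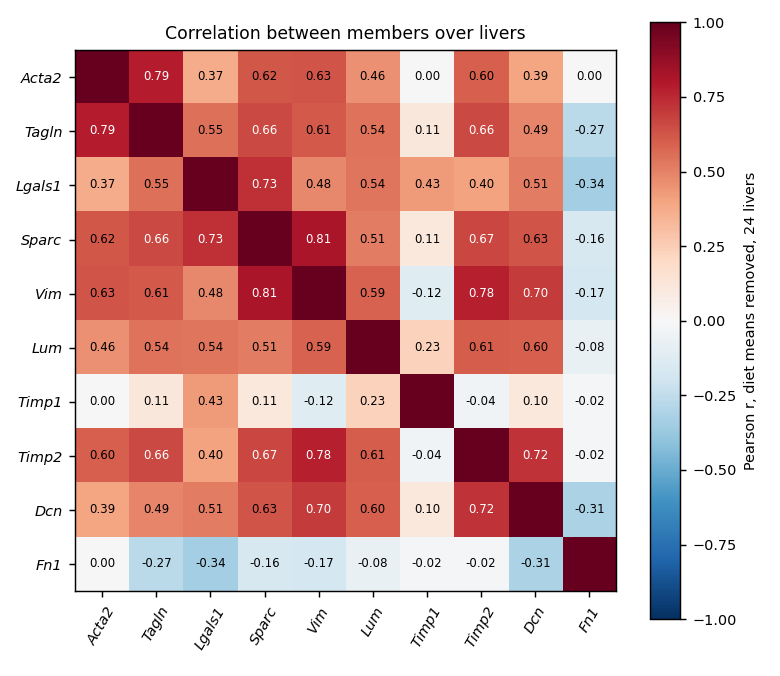
Pearson's r between the 10 markers (both axes) over 24 livers with the diet means removed, as number and colour. Sparc, Vim, Timp2, Tagln and Dcn form a block of positive values up to 0.81, while the column of Fn1 holds no value above 0 apart from its own diagonal.

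The genes whose values followed each marker most closely, among those with a mean signal over 20, are given by the same r over 24 livers as a description. For Sparc these were S100a11 (0.91), Col1a1 (0.88), Pcolce (0.87), Col3a1 (0.87) and Tgfbi (0.82), among them the genes of the fibrillar collagens and of the enhancer of procollagen cleavage. For Vim they were Tmsb10 (0.92), Ccdc80 (0.86), Col3a1 (0.86), Atp6v1e1 (0.85) and Hpx (0.84). Acta2 was closest to Rtca (0.76), Ccdc80 (0.75), Pdgfa (0.72), Ccnd1 (0.71) and Myl6 (0.70), and Tagln to Arpc5 (0.79), Pcolce (0.79) and Acta2 (0.79). Lum was closest to Tnfrsf12a (0.82), Myh9 (0.82) and Krt18 (0.79), Timp2 to Rhob (0.82) and Mmp2 (0.82), the gelatinase whose proenzyme binds Timp2 protein, and Dcn to Anxa1 (0.83) and Tpm4 (0.81). The nearest genes of Lgals1 were Lcn2 (0.88), Ifi27l2b (0.86), Orm2 (0.86), Saa2 (0.85) and Cd36 (0.84), of which Lcn2, Orm2 and Saa2 encode acute phase proteins. Timp1 and Fn1 had nothing closer than Anapc4 (0.71) and Bcat2 (0.71). None of the genes named in this way was called between Trans and Saturated livers.

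Further genes of stellate cell activation and fibrosis were counted in the same way. Of 22 measured, 8 had a mean signal over 20. Of all 22, 20 averaged more in Trans than in Saturated livers (49.9% of all probe sets did) and 20 more in Trans than in Cis livers (48.9%). At an unadjusted p under 0.05, 8 were higher in Trans than in Saturated livers (3.79% of all probe sets). Against Cis livers 6 were (3.05%), and 0 were called in either comparison. Their median log2 difference was 0.18 for Trans minus Saturated and 0.19 for Trans minus Cis. Col1a1, the α1 chain of type I collagen, averaged 5.30 in Trans livers, 4.57 in Cis livers and 4.46 in Saturated livers, a difference of 0.83 for Trans minus Saturated (SE 0.25, limma adjusted p = 0.429). Fstl1, a secreted glycoprotein of the SPARC family, differed by 0.49 (limma adjusted p = 0.491) at a mean signal under 20. Markers of quiescent stellate cells lay the other way, with 9 of 10 measured genes below their Saturated mean in the Trans group, 3 of them at an unadjusted p under 0.05 (3.54% of all probe sets) and none called, at a median of -0.16. Colec11, a collectin, differed by -0.25 (SE 0.06, limma adjusted p = 0.281) and Vipr1, the receptor of vasoactive intestinal peptide, by -0.21 (limma adjusted p = 0.605).

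Genes that work with single markers were more mixed. Of 17 other metalloproteinases and inhibitors, 12 had a higher mean in Trans than in Saturated livers (49.9% of all probe sets did), and 6 had a mean signal over 20. The 2 with the smallest p went in opposite directions. Mmp12, macrophage elastase, averaged 5.18 in Trans livers, 4.11 in Cis livers and 3.77 in Saturated livers (difference 1.41, SE 0.42, limma adjusted p = 0.387 for Trans minus Saturated). Reck, a membrane-anchored inhibitor of metalloproteinases, averaged 4.10 in Trans livers, 4.57 in Cis livers and 4.75 in Saturated livers (difference -0.65, SE 0.16, limma adjusted p = 0.266). Of 8 other intermediate filament genes, Krt8 and Krt18, the keratin pair of hepatocytes and bile duct cells, differed by 0.62 (SE 0.13, limma adjusted p = 0.198) and 0.44 (SE 0.12, limma adjusted p = 0.363). The other lists of partner genes were described for Trans minus Saturated. A higher mean in Trans livers was found for 11 of 13 other small leucine-rich proteoglycans (median 0.13), 9 of 11 other SPARC family and matricellular genes (0.13), 7 of 8 other galectins (0.13), 7 of 15 fibronectin receptors and partners (-0.03), and 1 of 4 genes for serum response factor and its coactivators (-0.08). In the same order, 3, 4, 5, 8 and 2 of these genes had a mean signal over 20. At an unadjusted p under 0.05, 1, 1, 0, 1 and 0 of them were higher in Trans livers (3.79% of all probe sets). None of these genes was called. The lists, with those of cell types below, are not separate. Fstl1 is in both the fibrosis and the SPARC family list, and Thy1 in both the fibrosis and the portal fibroblast list. Fbln2 is in both the fibronectin partner and the portal fibroblast list, and Krt19 in both the mesothelial and the cholangiocyte list.

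Markers of other cell types moved with the 10 genes in some livers. All 12 smooth muscle markers averaged more in the Trans than in the Saturated group, 5 of them at an unadjusted p under 0.05 (3.79% of all probe sets) and none called, at a median of 0.27. Of the 12, 6 had a mean signal over 20. Tpm2, a muscle tropomyosin, differed by 0.58 (limma adjusted p = 0.429) and Actg2, the γ-actin of enteric smooth muscle, by 0.36 (limma adjusted p = 0.506). The summed linear signal of the 12 ranged from 789.9 to 1011 in Trans livers, from 719.6 to 842.3 in Cis livers and from 713.4 to 843.1 in Saturated livers. Trans replicates 1, 4 and 8 ranked 1, 2 and 3 of the 24 livers for these 12 genes as well as for the 10 markers and for the 22 further fibrosis genes. Of 9 portal fibroblast markers, 8 had a higher mean in Trans than in Saturated livers (median 0.20), and the same 3 livers led their mean too, but none of the 9 had a mean signal over 20. The summed signal of the 9 ran from 58.4 to 144.7 in Trans, 58.1 to 79.7 in Cis and 59.2 to 74.7 in Saturated livers. The part of smooth muscle, portal fibroblasts or any other cell type in the differences of the 10 markers was not tested.

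Some of the same livers also led partner gene lists and markers of further cell types. Trans replicates 1, 4 and 8 ranked 1, 2 and 3 for SPARC family genes and 1, 2 and 5 for metalloproteinases and inhibitors. Their ranks were 1, 2 and 8 for fibronectin partners and 1, 6 and 3 for small leucine-rich proteoglycans. For galectins they were 2, 1 and 14, for intermediate filament genes 1, 3 and 2, and for serum response factor genes 1, 10 and 17. Endothelial markers ranked Trans replicate 4 at 1 and Trans replicate 1 at 2 of the 24 livers, with Trans replicate 8 at 9, and adipocyte markers ranked them at 1, 2 and 14. Mesothelial markers ranked Trans replicate 1 at 2, Trans replicate 4 at 4 and Trans replicate 8 at 18. Cholangiocyte markers ranked Trans replicate 4 at 1, Trans replicate 8 at 2 and Trans replicate 1 at 6. Recruited macrophage and neutrophil markers were at their highest in Trans replicate 1 (1.01 above the mean of 24 livers on the log2 scale), with Trans replicate 8 at rank 5 and Trans replicate 4 at rank 6. That list includes Lcn2, named above for its acute phase protein, and Lcn2 had its largest difference for Trans minus Saturated (0.80). The part of Lcn2 in this ranking was not tested. Hepatocyte markers were at their lowest in Trans replicate 1, at rank 24. Other lists did not follow this order. Kupffer cell markers ranked Trans replicates 1, 4 and 8 at 17, 4 and 24, and lymphocyte markers at 17, 3 and 12. Quiescent stellate cell markers ranked these livers at 15, 24 and 20. Krt23, a keratin in the cholangiocyte list, was the 1 gene of all lists that was called, and rose in Trans against Saturated livers by 1.80 (SE 0.25, limma adjusted p = 0.00867). Of the 7 cholangiocyte markers, 4 had a higher mean in Trans than in Saturated livers and 3 a lower one. The part of Krt23 in the cholangiocyte ranks was not tested. Among hepatocyte markers, 9 of 10 averaged less in the Trans than in the Saturated group, at a median of -0.06, and their summed signal overlapped between diets (40250 to 44840 in Trans, 41370 to 44170 in Cis and 41890 to 46070 in Saturated livers). For Trans minus Saturated the median was 0.10 over 12 endothelial markers, -0.23 over 10 Kupffer cell markers, 0.14 over 9 recruited macrophage and neutrophil markers, 0.07 over 7 cholangiocyte markers and 0.15 over 5 adipocyte markers. In the same order, 11, 10, 2, 1 and 1 of these genes had a mean signal over 20. The adipocyte differences ran from 0.10 to 1.57. The 7 mesothelial and 8 lymphocyte markers had no gene with a mean signal over 20. A higher mean in Trans than in Saturated livers was found for 3 of the 7 mesothelial, 1 of the 8 lymphocyte and 0 of 2 red blood cell markers.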

How the data were processed

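Liver RNA of 24 mice was measured on Affymetrix Mouse Gene 1.1 ST arrays. The authors normalized the scans by RMA with Bioconductor packages, and the deposited table holds log2 values of 35556 probe sets, of which 21218 name a single gene, 1881 several and 12457 none. This is the standard set of the array type, although the methods speak of 1 probe set per gene identifier. Background correction, quantile normalization and probe summary were thus done upstream, and quantile normalization sets an equal distribution in every array. With arrays, the number of livers limits the precision.

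The values were fitted with limma 3.58.1 in R 4.3.3 (lmFit on 3 diets, 21 residual degrees of freedom, eBayes without trend and not robust, two-sided, Benjamini-Hochberg over all probe sets). Spread was tested in the same way on absolute deviations from the diet mean. Correlations used 100000 permutations in Python 3.11.15. Scripts were tested on simulated data. The 10 members and the 20 other lists were chosen with earlier results of these data known. Genes to be named were the 10, the 2 of smallest p and any called gene in each other list, and the 5 of highest correlation with each of the 10 (all 5 or the first few are printed). The genes of smallest p are printed for some of the other lists, and the rest are given by counts, medians or ranks only. Alternatives were a filter on mean signal over 20, eBayes with trend, 2 diets only, a replicate block, array weights, other normalizations, the mean over probe sets, Tukey's test, and each liver left out. Equal replicate numbers did not pair the livers.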

Additional observations from a re-analysis of the deposited data

Results flagged for a closer look

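Of the 30 groups formed by 10 markers and 3 diets, 3 held a liver far from its nearest neighbour by Dixon's criterion at the 95% level, which chance meets in about 1 in 20 groups. Acta2 was 5.38 in Cis replicate 5 on the log2 scale, and the next Cis liver had 4.50. Vim was 7.33 in Cis replicate 6, and the next Cis liver had 6.76. Timp1 was 2.87 in Trans replicate 5, and the next Trans liver had 2.16. The high Acta2 values of Trans replicates 1, 4 and 8 did not meet the criterion, since they lie near each other.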

How the results depend on the processing

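Counting the main tests together with the alternatives, no marker was called for a difference between diets in any of 1041 tests, with a lowest adjusted p of 0.27 (Lgals1, Trans minus Saturated, mean signal over 20), or for spread in any of 861, with a lowest adjusted p of 0.15 (Acta2, Trans minus Cis, without Cis replicate 5). The cause of the changes below was not tested.

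With the replicate block, 5 probe sets of the whole array were called for Trans minus Saturated and 0 for Trans minus Cis, against 3 and 1 without it, and the block changed no call of a marker. Livers of equal number had a median correlation of 0.0187, and 4 of 24 correlated best with their own number. Over the whole array, Trans minus Saturated gave 1 call after median centring and 0 with the 2 diets only, with Tukey's test or without Trans replicate 4 and Cis replicate 8 (chosen after seeing the data). Trans minus Cis gave 0 calls in the last 3 settings and with mean signal over 20. Markers higher at an unadjusted p under 0.05 numbered 3 for Trans minus Cis with array weights, and 1 for Trans minus Cis without those 2 arrays. With the 2 diets only, 1 marker was lower in Cis than in Saturated livers at that level. With Tukey's test, whose p already allows for the 3 comparisons of diets, 2 markers were higher at a p under 0.05 in either Trans comparison. Of the correlated pairs, 8 passed without the 2 farthest livers.

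Leaving out 1 liver at a time gave 1 to 16 calls over the array for Trans minus Saturated (16 without Saturated replicate 2, of which 0 were markers), 0 to 2 for Trans minus Cis and 0 to 3 for Cis minus Saturated. Markers higher at an unadjusted p under 0.05 numbered 4 to 5, 3 to 6 and 1 to 1 in these comparisons (3 for Trans minus Cis without Trans replicate 1, Trans replicate 4 or Cis replicate 4), and those lower in Cis than in Saturated livers 0 to 1. The median over the markers ranged from 0.23 to 0.38, from 0.25 to 0.38 and from -0.09 to -0.0062.

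The signs that turned were the following. With 1 liver left out, log2 differences ran for Trans minus Saturated from -0.0092 to 0.16 for Timp1, -0.045 to 0.018 for Dcn and -0.029 to 0.0018 for Fn1, for Trans minus Cis from -0.12 to 0.14 for Lgals1, for Cis minus Saturated from -0.033 to 0.19 for Acta2 and -0.13 to 0.025 for Vim. Differences in spread ran for Trans minus Saturated from -0.21 to 0.015 for Lgals1, -0.11 to 0.11 for Timp1 and -0.0072 to 0.033 for Dcn, for Trans minus Cis from -0.027 to 0.16 for Lgals1, -0.12 to 0.10 for Timp1, -0.081 to 0.0598 for Timp2 and -0.013 to 0.023 for Dcn, for Cis minus Saturated from -0.087 to 0.16 for Acta2, -0.077 to 0.0600 for Tagln, -0.043 to 0.032 for Sparc, -0.079 to 0.073 for Vim, -0.028 to 0.037 for Timp1, -0.011 to 0.027 for Dcn and -0.018 to 0.00045 for Fn1. Array weights gave -0.0095 for Lgals1 (Trans minus Cis) and 0.0016 for Vim (Cis minus Saturated), for which leaving out Trans replicate 4 and Cis replicate 8 gave 0.000486. Quantile normalization again gave 0.0039 for Fn1 (Trans minus Saturated). With deviations from the median, spread differed by -0.036 for Timp2 (Trans minus Cis), 0.0165 for Tagln and -0.00655 for Timp1 (both Cis minus Saturated).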
